A study of Mus musculus with 30 samples.

Results

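The genes described here encode the receptors, co-receptors and ligands of vascular endothelial growth factor (VEGF) signalling, followed across age in endothelial cells of the mouse brain. The 8 genes, taken by symbol from the 48795 genes counted in each library, were the receptors Kdr, Flt1 and Flt4, the neuropilins Nrp1 and Nrp2, and the ligands Vegfa, Vegfc and Pgf. All 8 were found in all 30 libraries, none was at 0 in any library, and all 8 passed the filter on low counts. The study sequenced RNA of primary endothelial cells, labelled as coming from the brains of WT mice with no treatment, at 2, 6, 12, 18 and 24 months of age. Each age had 6 libraries, 3 of male and 3 of female mice. Libraries are named below by age and a number from 1 to 6 that only names them, of which 1 to 3 are male and 4 to 6 female. No strain, isolation method or pooling of mice is given in the sources used here, so the spread between libraries may be that between single mice or between pools. The study's stated question was which transcripts change with age once sex is accounted for.

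VEGF ligands are secreted dimers that bind receptor tyrosine kinases on the endothelial surface. VEGF-A acts mainly through the receptor encoded by Kdr (VEGFR2), which drives endothelial survival, migration, proliferation and permeability, whereas the product of Flt1 (VEGFR1) binds VEGF-A tightly but signals weakly and acts largely as a trap, in part as a secreted form. Placental growth factor (Pgf) binds the Flt1 product and not that of Kdr, VEGF-C binds the receptor encoded by Flt4 (VEGFR3), which is best known from lymphatic vessels, and neuropilins are co-receptors shared with semaphorins. In the adult brain VEGF-A comes chiefly from astrocytes and other cells around the vessel.

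The start regions of Kdr, Flt1 and Pgf are shown because these genes carry the results that follow. Each window covers the 250 bases before the RefSeq transcription start on GRCm38.p6, read in the direction of the gene. RefSeq gives 1 window for Kdr and for Flt1 and 2 for Pgf, of which 1 is shown. Capitals mark the motif found in each, an ETS factor motif in the Kdr window and a TATA box in that of Flt1.
Kdr, chr5:75978456-75978705, minus strand: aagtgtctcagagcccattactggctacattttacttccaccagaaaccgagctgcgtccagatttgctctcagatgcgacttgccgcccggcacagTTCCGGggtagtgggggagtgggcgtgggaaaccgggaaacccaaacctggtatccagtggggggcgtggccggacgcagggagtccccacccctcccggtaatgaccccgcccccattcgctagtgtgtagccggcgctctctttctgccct
Flt1, chr5:147726012-147726261, minus strand: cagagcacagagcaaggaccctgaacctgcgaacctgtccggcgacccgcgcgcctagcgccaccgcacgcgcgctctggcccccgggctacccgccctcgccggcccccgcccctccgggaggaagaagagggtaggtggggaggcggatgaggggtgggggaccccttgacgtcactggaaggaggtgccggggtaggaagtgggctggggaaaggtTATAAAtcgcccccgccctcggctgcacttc
Pgf, chr12:85177314-85177563, minus strand: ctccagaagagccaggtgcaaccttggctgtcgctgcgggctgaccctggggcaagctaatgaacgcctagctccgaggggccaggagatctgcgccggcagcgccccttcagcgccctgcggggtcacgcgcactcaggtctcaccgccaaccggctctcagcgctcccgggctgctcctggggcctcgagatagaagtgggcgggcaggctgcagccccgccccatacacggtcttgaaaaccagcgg
The windows were searched on both strands for ACGTG, a form of the hypoxia response core, and for the letters CCGGAA bound by many ETS factors. The letters AGATAA bound by factors of the family of Gata1 and TATAAA, the core promoter box, were also searched, and no match overlapped another. Other forms of these motifs were not searched. The Kdr window held the ETS motif on the reverse strand, 153 to 148 bases before the start. The Flt1 window held TATAAA 31 to 26 bases before the start. That of Vegfa held AGATAA 182 to 177 bases before the start, and none of the 4 motifs was found in the windows of Flt4, Nrp1, Nrp2, Vegfc and Pgf. Among 32851 mouse windows of the same length, ACGTG was in 16.6%, CCGGAA in 12.0%, AGATAA in 9.99% and TATAAA in 12.4%. A match of letters is a description and not a measured binding site.

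The libraries held between 24140980 and 50464366 reads counted in genes, so that the limit of 3 counts lay at 0.0594 to 0.124 CPM, the count scaled to a common library size. Library sizes were first scaled by the trimmed mean of M values (TMM), and a fitted change is a log2 change in CPM from edgeR's quasi-likelihood test with p-values adjusted by Benjamini and Hochberg over the 16844 genes tested. A gene passed at an adjusted p under 0.05. The summed CPM of 12 endothelial markers was 15258 to 24027 across libraries, with Slc2a1, the glucose transporter of the blood-brain barrier, highest at a mean of 4573 CPM. Other cells were present at lower levels in every group: 12 pericyte markers summed to 393 to 1258 CPM, 10 smooth muscle markers to 75.9 to 512 CPM, 12 astrocyte markers to 263 to 1532 CPM, 10 fibroblast markers to 494 to 2353 CPM and 11 choroid plexus and ependyma markers to 164 to 7027 CPM. Markers of vessel segments also differed between ages. The 10 capillary markers summed to a mean of 26312 CPM at 2 months and 18860 at 24 months, and the 13 arterial ones to 1670 and 2498 CPM. The 12 venous markers summed to means of 1696 CPM at 2 months, 1288 at 6, 1271 at 12, 1718 at 18 and 1526 at 24 months. The part of these segments in the member values was not tested. In such bulk samples, fewer cells of a type and less RNA per cell cannot be told apart. Beyond the members, 1843 of the 16844 genes (10.9%) passed the slope on age, 964 of them upward and 879 downward, with a median slope of 0.03 over all genes.

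Compared per length, Flt1 was the most abundant of the 8 transcripts. Its mean over the 30 libraries was 249 RPKM (CPM divided by the merged exon length in kilobases), followed by Kdr at 138, Nrp1 at 44.4, Vegfc at 19.8, Flt4 at 13.5, Pgf at 2.11, Vegfa at 1.81 and Nrp2 at 1.79 RPKM. Flt1 exceeded Kdr in 30 of 30 libraries and Kdr exceeded Nrp1 in 30 of 30, with no overlap between the ranges of Kdr and Nrp1. Nrp1 exceeded Vegfc in 30 of 30 libraries, Vegfc exceeded Flt4 in 25 of 30, and Flt4 exceeded Pgf in 30 of 30. The last places did not separate: Pgf exceeded Vegfa in 19 of 30 libraries and Vegfa exceeded Nrp2 in 16 of 30. Among 16800 genes with a length, Flt1 ranked at place 125 from the top, Kdr at 305, Nrp1 at 1247, Vegfc at 2832 and Flt4 at 3830. Vegfb, which encodes a ligand of the Flt1 product, had a mean of 11.7 RPKM, and Vegfd, whose product binds that of Flt4 in the mouse, had 0.915 RPKM. Together the CPM of the 8 members averaged 0.524% of the TMM-scaled library size, between 0.352 and 0.691% in a library.

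**Figure D1:**
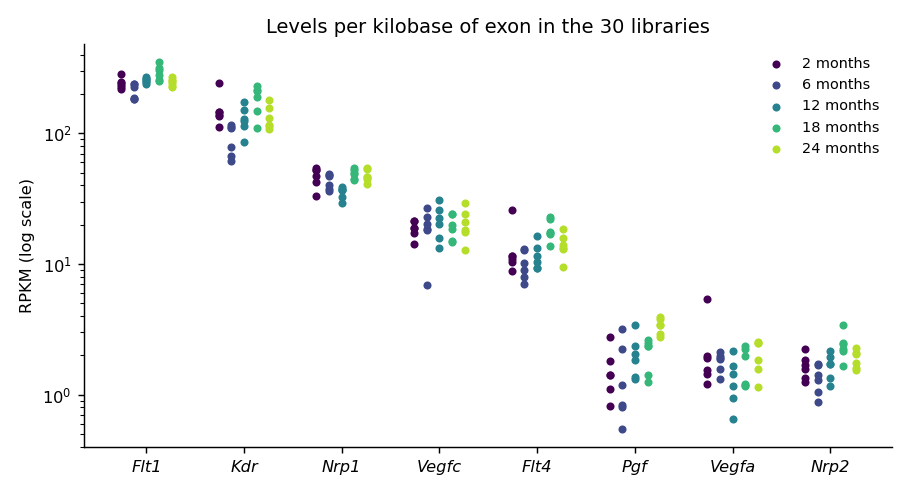
Levels of the 8 members per exon length in each of the 30 libraries, on a log10 axis in RPKM, with 1 point per library coloured by age. Flt1 (mean 249 RPKM) and Kdr (138 RPKM) lie above Nrp1 (44.4 RPKM), and the ranges of Pgf, Vegfa and Nrp2 overlap near 2 RPKM.

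Over the 5 ages, a single member passed the slope on age, the ligand gene Pgf, which rose, against 10.9% of all genes. The median slope of the 8 members was 0.24 log2 over the 22 months. In the contrasts with 2 months, Kdr fell at 6 months (8.76% of all genes passed), Nrp1 fell at 12 months (2.94%), Flt1 and Nrp2 rose at 18 months (18.8%) and Pgf rose at 24 months (8.35%). The departure from a straight line passed for 4 of 8 members, Kdr, Flt1, Flt4 and Nrp1, against 17.7% of all genes. The 4 contrasts share the 2-month libraries, so they are not independent of each other.

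**Figure D2:**
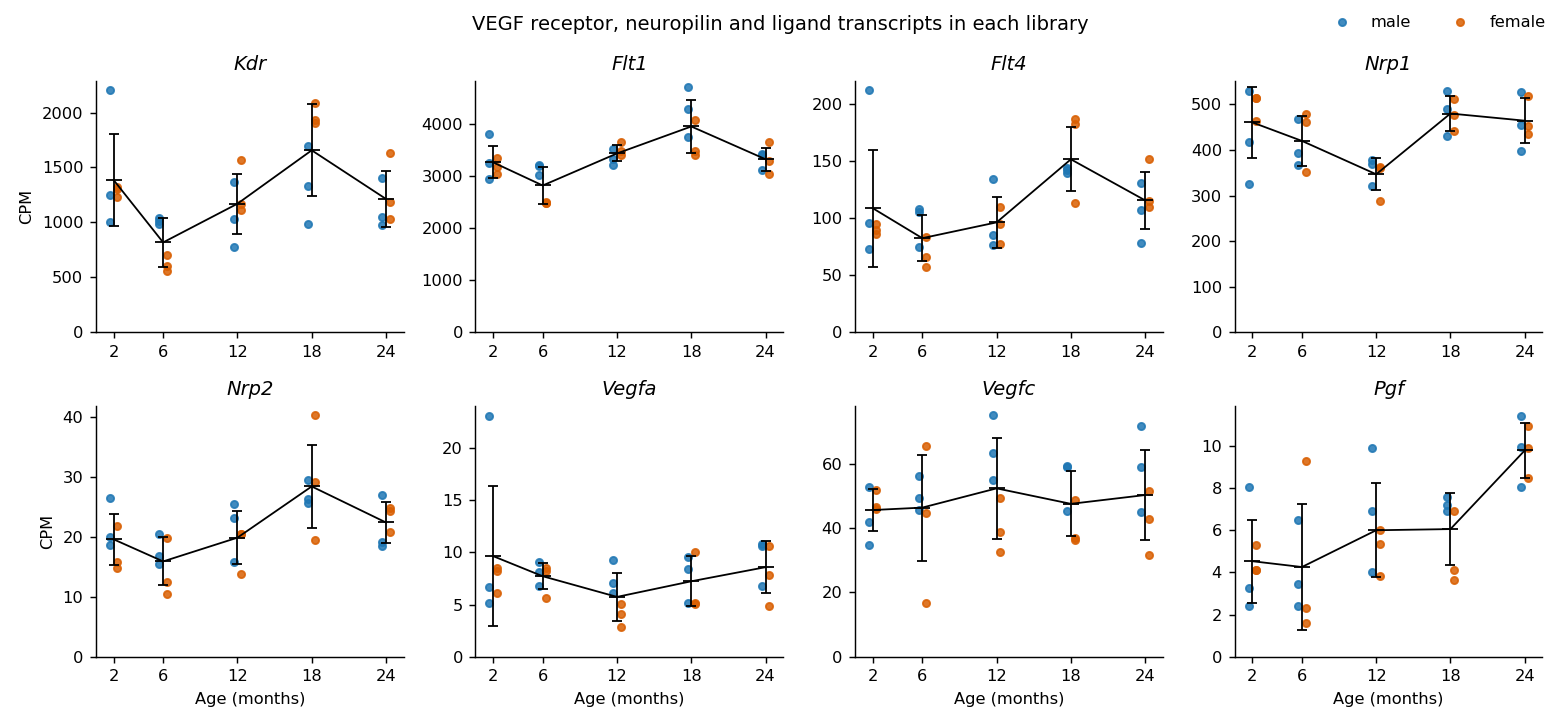
CPM of each of the 8 members in every library by age in months, with 1 panel per gene, separate colours for male and female libraries and the mean and SD of each age (n = 6). Kdr has its lowest mean at 6 months (817 CPM) and its highest at 18 months (1656 CPM), and all 6 Pgf values at 24 months (8.06 to 11.4 CPM) lie above the highest at 2 months (8.03 CPM).

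Kdr (chromosome 5, 75932827 to 75978458, minus strand, GRCm38), the gene of the main signalling receptor, was lowest at 6 months. At 2 months its values ran from 1006 to 2205 CPM with a median of 1276, and at 6 months from 557 to 1042 with a median of 846. The next ages spanned 772 to 1567 CPM at 12 months (median 1141), 989 to 2083 at 18 months (median 1801) and 980 to 1633 at 24 months (median 1116). At 6 months 4 of the 6 libraries lay below the lowest 2-month library, the groups overlapped at every age, and the 3 female libraries of 6 months (557, 601 and 705 CPM) lay below the 3 male ones (986, 1013 and 1042 CPM). The fall from 2 to 6 months was -0.76 ± 0.20 (log2, SE; adjusted p = 0.0201, edgeR quasi-likelihood test), from a mean of 1386 ± 417 to 817 ± 221 CPM (SD, n = 6). Library 3 of 2 months, at 2205 CPM, raised the 2-month mean, and without it the change was -0.52 and no longer passed; leaving out library 4, 5 or 6 of 6 months also ended the call. No straight trend passed, with a slope of 0.25 ± 0.23 and an adjusted p of 0.524, while the departure from a line did (adjusted p = 9.85e-03).

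Flt1 (chromosome 5, 147561604 to 147726011, minus strand) varied far less between libraries than Kdr. The lowest, median and highest values were 2945, 3221 and 3817 CPM at 2 months and 3410, 3922 and 4718 at 18 months. Each 18-month library exceeded the mean of 2 months, and 3 exceeded its highest library. Flt1 rose by 0.27 ± 0.08 log2 from 2 to 18 months (adjusted p = 0.0228), and by 24 months its mean was 3326 ± 220 CPM against 3266 ± 306 at 2 months (0.03 ± 0.08, adjusted p = 0.902). The 18-month call was lost when library 1 or 4 of 2 months or library 1 or 5 of 18 months was left out. At 6 months the 3 female libraries held 2484, 2491 and 2508 CPM, the lowest of all 30, and the 3 male ones 3031 to 3210. The departure from a line passed (adjusted p = 8.13e-03). Counts per gene do not separate the transcript of the membrane receptor from that of the secreted form, so the Flt1 value is their sum.

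Flt4 (chromosome 11, 49609263 to 49652739, plus strand) was counted at 57.5 to 212 CPM although defining lymphatic markers were close to the limit of counting. Prox1, the transcription factor that sets lymphatic identity, averaged 0.178 CPM and Lyve1 0.314 CPM, Ccl21a and Reln did not pass the filter, and the 8 lymphatic markers together summed to 2.67 to 16.4 CPM, with Foxc2 highest at 4.12 CPM. By age the Flt4 mean was 109 ± 51.4 CPM at 2 months, 82.4 ± 20.4 at 6, 96.2 ± 22.1 at 12, 151 ± 28.2 at 18 and 115 ± 24.7 at 24 months (SD, n = 6 each). Each 18-month library exceeded the mean of 2 months, and each was below library 3 of 2 months, the highest at 212 CPM. The change at 18 months was 0.49 ± 0.21 (adjusted p = 0.0985) and the slope 0.46 ± 0.21 (adjusted p = 0.167), neither of which passed. Without library 3 of 2 months the slope was 0.70 and passed (adjusted p = 0.0120), so that this call appears only when that library is left out. The departure from a line passed (adjusted p = 0.0474) and was lost in 22 of the 30 fits that each left out 1 library.

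**Figure D3:**
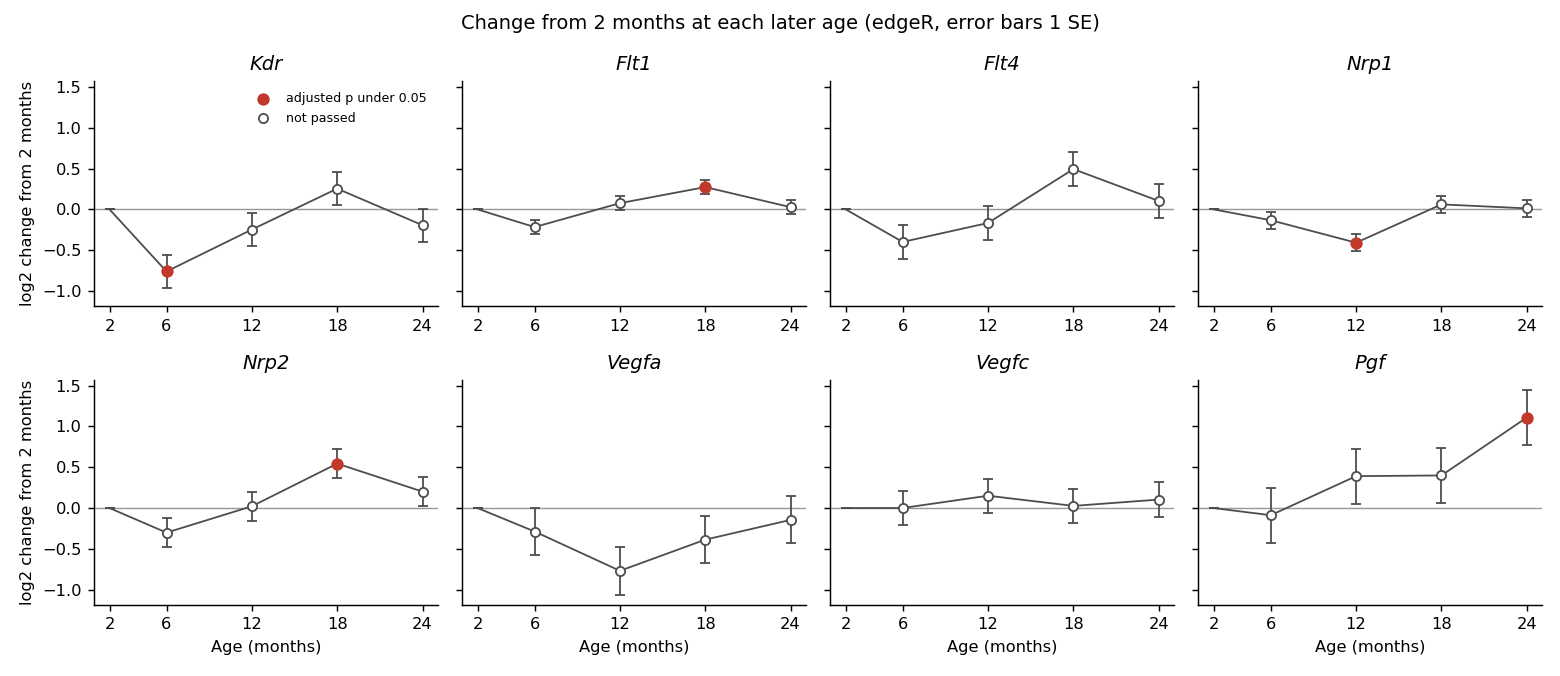
Fitted log2 change from 2 months with its SE for each member at 6, 12, 18 and 24 months, with filled points where the adjusted p was under 0.05. The filled points are Kdr at 6 months (-0.76), Nrp1 at 12 months (-0.41), Flt1 and Nrp2 at 18 months (0.27 and 0.54) and Pgf at 24 months (1.11).

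Kdr moved with how a library's reads were spread over genes. The share of counts in genes with a merged exon length above the median of 4110.5 bases ranged from 42.3 to 58.9% across libraries, and Kdr, Flt1, Flt4, Nrp1, Nrp2 and Vegfa are longer than that median whereas Vegfc and Pgf are shorter. The 4 libraries with the lowest share were female libraries 4, 5 and 6 of 6 months (43.9, 42.3 and 45.4%) and male library 1 of 12 months (44.7%). They held the 4 lowest Kdr values of all 30, from 557 to 772 CPM, and 3 of the 4 lowest Flt1 values. The 4 libraries with the highest share were all of 18 months (55.1 to 58.9%) and held 3 of the 4 highest Kdr values but 1 of the 4 highest of Flt1. Flt4 shared 2 of 4 libraries at each end, and Nrp2 2 of 4 at the low end and 3 of 4 at the high end. Nrp1 and the shorter Pgf each shared 2 of 4 at the low end and 0 of 4 at the high end. For Vegfc these counts were 1 and 0, and for Vegfa 0 and 0. Reads outside genes went from a mean of 5.06% at 2 months to 10.4% at 18 and 7.19% at 24 months. With the long-gene share as a covariate Kdr at 6 months was -0.29 (adjusted p = 0.164, against -0.83 and 0.0100 with reads outside genes), Flt1 at 18 months 0.20 (adjusted p = 0.0901) and the slope of Kdr -0.12 in place of 0.25. With either share as a covariate the departure from a line passed for 1 member, Nrp1, in place of 4. The 11 blood cell markers summed to a mean of 495 CPM at 2 months, 1178 at 6 and 352 at 18 months, and to 1575, 2081 and 925 CPM in female libraries 4, 5 and 6 of 6 months. Libraries 4 and 5 also held the highest fibroblast sums of all 30 (1926 and 2353 CPM). The part of these shares and cells in the receptor values was not tested.

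**Figure D4:**
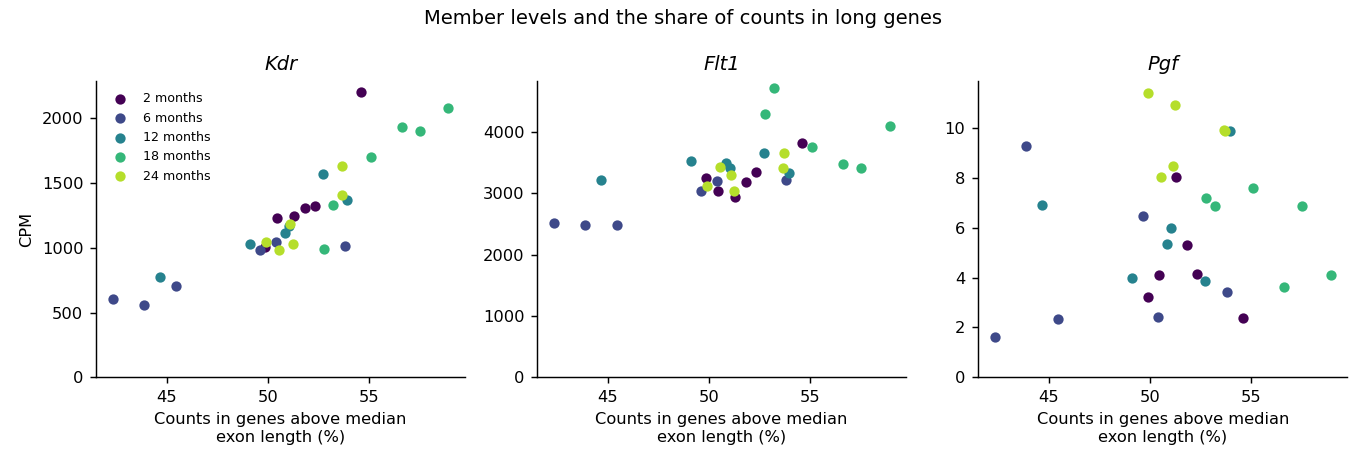
CPM of Kdr, Flt1 and Pgf in each library against the percent of its gene counts in genes longer than the median of 4110.5 bases, coloured by age. The 4 libraries with the lowest share (42.3 to 45.4%) hold the 4 lowest Kdr values (557 to 772 CPM).

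Of the neuropilins, Nrp1 was the more abundant in every library, with a mean ratio to Nrp2 per length between 21.6 at 18 months and 33.6 at 6 months. Nrp1 (chromosome 8, 128358604 to 128503363, plus strand), co-receptor for VEGF-A and for class 3 semaphorins, fell at 12 months by 0.41 ± 0.11 (log2, SE; adjusted p = 0.0320). The 12-month libraries held 289 to 379 CPM (median 362) against 326 to 529 (median 489) at 2 months, and all 6 lay below the 2-month mean while 2 lay below its lowest library. By 18 months the mean was 480.2 ± 38.9 CPM and by 24 months 464 ± 50.0 CPM, close to the 461 ± 78.3 CPM of 2 months (0.01 ± 0.11 at 24 months, adjusted p = 0.965). The call at 12 months was lost in 8 of the 30 fits that left out 1 library, each of them a library of 2 or 12 months. Its exons share 80 bases with the microRNA gene Mir1903 on the same strand, and no other member shared exon bases with another gene. The slope was 0.10 ± 0.12 (adjusted p = 0.621).

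Nrp2 (chromosome 1, 62703285 to 62818695, plus strand), known as a co-receptor for VEGF-C, rose at 18 months. Its values were 14.8 to 26.5 CPM (median 19.4) at 2 months and 19.5 to 40.4 (median 27.8) at 18 months, with 3 of the 18-month libraries above the highest of 2 months. This change was 0.54 ± 0.18 (log2, SE; adjusted p = 0.0327). Means at the other ages were 15.9 ± 4.00 CPM at 6 months, 19.9 ± 4.38 at 12 and 22.4 ± 3.48 at 24 months, and the 24-month contrast of 0.20 ± 0.18 had an adjusted p of 0.572. The slope of 0.52 ± 0.18 had an adjusted p of 0.0668 in edgeR's quasi-likelihood test and 0.0488 in DESeq2's Wald test. At 18 months the call was lost with the long-gene share as a covariate (0.41, adjusted p = 0.132), and with the reads outside genes the change was -0.15. Leaving out library 1, 2, 4 or 5 of 2 months or library 4 or 5 of 18 months also ended it.

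Pgf (chromosome 12, 85166635 to 85177790, minus strand), the ligand of the Flt1 product, rose with age. Its 2-month libraries held 8.03, 3.24 and 2.39 CPM in males and 4.09, 4.14 and 5.29 in females. At 24 months the male libraries held 8.06, 11.4 and 9.92 CPM and the female ones 9.89, 8.50 and 10.9. Every 24-month library therefore lay above every 2-month library, the narrowest gap being that between 8.03 and 8.06 CPM, and 3.74% of all genes were separated upward in this way. Between these ages the values spread widely, from 1.60 to 9.30 CPM at 6 months, 3.85 to 9.88 at 12 and 3.64 to 7.59 at 18 months.

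Pgf averaged 4.53 ± 1.97 CPM in the youngest group and 9.79 ± 1.31 CPM in the oldest (SD, n = 6), a ratio of 2.16. Its slope was 1.09 ± 0.28 log2 over 22 months (SE; adjusted p = 0.0114, edgeR quasi-likelihood test), and the 24-month contrast was 1.11 ± 0.34 (adjusted p = 0.0370). Pgf did not pass at 6 months (-0.09 ± 0.34), 12 months (0.39 ± 0.34) or 18 months (0.40 ± 0.34). The slope passed in all 30 fits that left out 1 library, from 1.01 to 1.27, while the 24-month contrast was lost in 9 of them and with reads outside genes as a covariate (1.08, adjusted p = 0.101). Those 9 left out library 2, 3, 4 or 5 of 2 months or library 2, 3, 4, 5 or 6 of 24 months. In males alone the slope was 1.19 ± 0.37 (adjusted p = 0.145) and in females alone 1.003 ± 0.41 (adjusted p = 0.171), so that neither sex passed on its own. The departure of Pgf from a straight line had an adjusted p of 0.668. A gene at this level rests on 39 to 431 reads a library.

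Some markers of pericytes and smooth muscle, the mural cells of the vessel, also rose. Of 12 pericyte markers 4 passed the slope upward and 0 downward, and of 10 smooth muscle markers 3 passed upward and 0 downward. Over all genes 10.9% passed in either direction. Their summed CPM was 571 to 1161 at 2 months (mean 807) and 692 to 1770 at 24 months (mean 1130), with means of 748, 780.0 and 762 at 6, 12 and 18 months. The genes with the highest mean among them were Vtn (283 CPM) in the pericyte list and Acta2 (71.9 CPM) in the smooth muscle list. With the log2 of this sum as a covariate the Pgf slope was 0.84 (adjusted p = 0.0260), with the long-gene share 1.16 (adjusted p = 0.0105), with reads outside genes 1.23 (adjusted p = 0.0441) and with the astrocyte sum 1.41 (adjusted p = 9.70e-03). The Pgf slope passed with each of the 4 covariates, of which the pericyte and smooth muscle sum gave the lowest value. The part of these cells in the Pgf values was not tested.

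Vegfa (chromosome 17, 46016993 to 46032369, minus strand), the principal ligand of the Kdr product, was low and passed in no test of age. Its slope was -0.12 ± 0.26 (adjusted p = 0.809), and the contrast nearest to passing was that at 12 months (-0.77 ± 0.29, adjusted p = 0.163). Means were 9.63 ± 6.68 CPM at 2 months, 7.71 ± 1.24 at 6, 5.73 ± 2.29 at 12, 7.23 ± 2.39 at 18 and 8.58 ± 2.47 at 24 months. Library 1 of 2 months, a male one, held 23.0 CPM, whereas the other 5 of that age held 5.19 to 8.53 CPM. In that library the astrocyte markers summed to 1532 CPM, the microglia markers to 1438 and the oligodendrocyte lineage markers to 863 CPM. The 12 astrocyte markers summed to means of 864 CPM at 2 months and 506 at 24 months. Of the 12, 6 passed the slope downward and 0 upward, beside 10.9% of all genes in either direction. With their sum as a covariate the slope of Vegfa was 0.56 (adjusted p = 0.180), and without library 1 of 2 months it was 0.19 (adjusted p = 0.637). The part of these cells in the Vegfa values was not tested.

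Vegfc (chromosome 8, 54077606 to 54187096, plus strand), the ligand of the Flt4 product, stayed between 16.8 and 75.2 CPM with no age passing. Its mean was 45.6 ± 6.64 CPM at 2 months and 50.3 ± 14.0 CPM at 24 months, with a slope of 0.09 ± 0.18 (adjusted p = 0.794). Per length it was 10.9 times Vegfa at 24 months and 16.7 times at 12 months on average. Of the ligand genes outside the 8 members, neither Vegfb (slope -0.20 ± 0.20, adjusted p = 0.542) nor Vegfd (0.50 ± 0.33, adjusted p = 0.350) passed. Vegfb averaged 16.6 ± 2.89 CPM in the youngest and 17.6 ± 1.91 CPM in the oldest group.

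**Figure D5:**
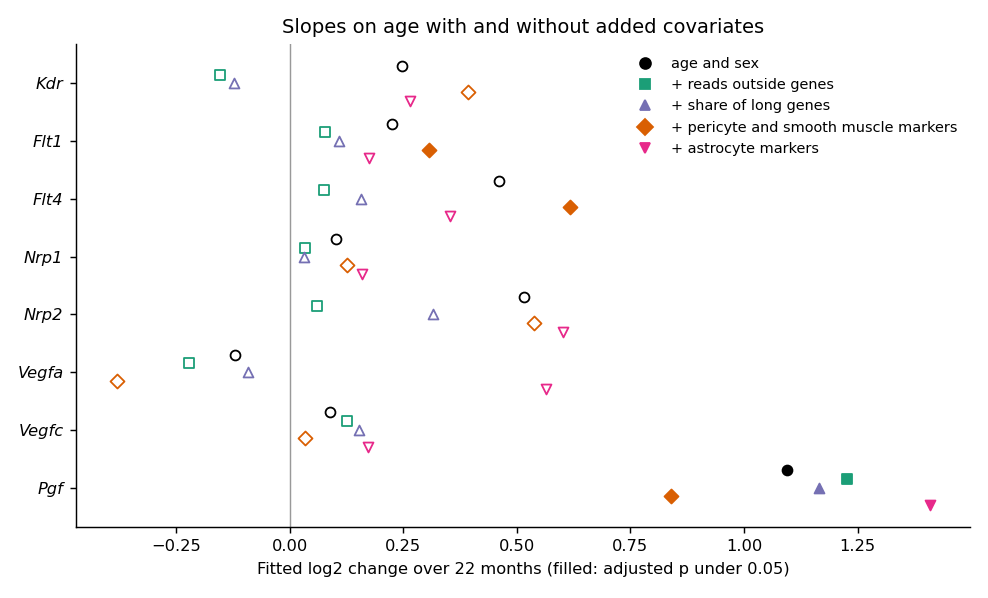
Fitted log2 change over 22 months for each member with age and sex in the model and with 1 further covariate added, filled where the adjusted p was under 0.05. Pgf is filled in all 5 models (0.84 to 1.41), and Flt1 and Flt4 only with the pericyte and smooth muscle markers added (0.31 and 0.62).

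Per length, the balance between members was also described without a test. The ratio of Kdr to Flt1 had a mean of 0.628 ± 0.131 (SD, n = 6) at 2 months, 0.427 ± 0.0667 at 6, 0.507 ± 0.107 at 12, 0.645 ± 0.212 at 18 and 0.543 ± 0.0874 at 24 months. Kdr stayed below Flt1 throughout, from 0.335 to 0.864 of its level. That of Pgf to Vegfa was 0.768 ± 0.209 at 2 months, 0.785 ± 0.500 at 6, 1.71 ± 0.808 at 12, 1.30 ± 0.450 at 18 and 1.84 ± 0.754 at 24 months. Pgf was below Vegfa in each 2-month library, the highest ratio being 0.994. It exceeded Vegfa in each library of 18 and of 24 months, the lowest ratios being 1.01 and 1.18. At 6 months the ratio ran from 0.406 to 1.68 and at 12 months from 0.962 to 3.16. Both levels are per merged exon length, so whether Pgf lies above Vegfa depends on those lengths.

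None of the 8 members passed the difference between sexes, against 0.101% of all genes. The members nearest to it were Vegfc, at -0.34 ± 0.13 (female minus male, log2; adjusted p = 0.532 by edgeR's quasi-likelihood test), and Vegfa at -0.41 ± 0.18 (adjusted p = 0.588). Vegfc averaged 42.7 ± 11.3 CPM in 15 female and 54.3 ± 11.0 CPM in 15 male libraries. For the difference in slope between sexes 0 members and 0.00% of all genes passed in edgeR's quasi-likelihood test, in which 916 genes had an unadjusted p under 0.05; this count was also 0 with DESeq2's size factors and 7 with no filter. Flt4 had a slope of 0.04 ± 0.29 in males and 0.89 ± 0.25 in females, a difference of 0.85 ± 0.41 with an adjusted p of 0.876. Kdr had -0.13 ± 0.25 in males and 0.65 ± 0.34 in females, a difference of 0.78 ± 0.44 (adjusted p = 0.876).

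The genes whose levels were most like those of each member over the 30 libraries were found by Pearson's r of log2 CPM among 10321 genes with a mean of at least 5 CPM. These values describe libraries that share ages, sexes and the differences in read distribution given above, and carry no test. Kdr was most like Cltc (0.94), which encodes clathrin heavy chain, Efr3b (0.94) and Myo1e (0.92). For Flt1 they were Usp7 (0.86), Ptpn21 (0.83) and Ptbp3 (0.82), and for Flt4 Ptprg (0.90), Snrnp200 (0.89) and Myo18a (0.88). The neuropilins were less closely matched, Nrp1 by Eif4g3 (0.70), Apbb2 (0.67) and Tsr1 (0.63) and Nrp2 by Iqsec1 (0.77), Btaf1 (0.76) and Polr2a (0.76). Vegfa was most like Atp1b2 (0.78), which encodes a sodium pump subunit known from astrocytes, and Tubb4a (0.73). Library 1 of 2 months held the highest Vegfa value (23.0 CPM) and the highest astrocyte marker sum (1532 CPM) of all 30. The r values of Vegfa were not computed without it. Vegfc followed Alox12 (0.73), Fam206a (0.66) and Bmx (0.65), the last a kinase gene used as an arterial marker. Pgf was most like Sulf2 (0.72), Lrp3 (0.72) and Osbpl5 (0.72), and of these Sulf2 and Lrp3 also passed the slope (1.25 and 1.09, adjusted p = 5.90e-03 and 2.84e-03).

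Around the members, the further genes of the pathway moved in both directions. Of 37 receptor partners and signal relay genes 5 passed the slope upward and 5 downward, with a median of -0.05, beside 10.9% and 0.03 over all genes. Those that rose included Ptprj, a receptor phosphatase that acts on the Kdr product (from 6.07 ± 2.17 to 11.9 ± 3.75 CPM between 2 and 24 months, slope 1.06 ± 0.23), Pik3r1, the regulatory subunit of phosphoinositide 3-kinase (0.56 ± 0.14), and the scaffold gene Iqgap1 (0.50 ± 0.13). Fyn, a Src family kinase, fell from 192 ± 24.5 to 119 ± 5.05 CPM (slope -0.60 ± 0.11, adjusted p = 6.79e-04), with Cdc42 at -0.27 ± 0.07 and the small heat shock protein gene Hspb1 at -0.82 ± 0.24. Of 15 trafficking genes Rab4a, a GTPase of receptor recycling, fell by 0.80 ± 0.11 and Kif13b, a kinesin that carries the Kdr product, rose by 1.22 ± 0.22. With reads outside genes as a covariate, under which 402 genes passed the slope in place of 1843, 1 of the 10 relay calls (Fyn) and 1 of the 2 trafficking calls (Rab4a) were kept, and with the long-gene share 5 of 10 and 2 of 2. Without the 2-month libraries 2 of the 10 relay calls were kept, of those named here only Hspb1. Without the 18-month ones those of Ptprj and Fyn were kept. Male libraries alone kept 0 of the 10 and female libraries alone 2, Cdc42 and Iqgap1. Both trafficking calls were kept without the libraries of either age and in females, and neither in males.

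Among 19 calcineurin and VEGF-induced transcripts 4 passed upward and 0 downward, with a median slope of 0.21. Beside this list and those that follow, 10.9% of all genes passed the slope in either direction, with a median of 0.03. They were Ptgs2, which encodes cyclooxygenase-2 (from 11.4 ± 3.17 to 38.0 ± 12.1 CPM, slope 2.04 ± 0.32), the immediate early genes Egr1 (1.52 ± 0.29) and Nr4a1 (1.10 ± 0.25), and Ppp3cb, a catalytic subunit of calcineurin (0.53 ± 0.13). All 4 calls were kept with the long-gene share and 3 with the reads outside genes, Ppp3cb being lost. The Ppp3cb call was also lost with the astrocyte sum, without the 2-month libraries and without the 18-month ones. Male libraries alone kept the calls of Egr1 and Ptgs2, and female libraries alone only that of Ptgs2. Of 13 tip cell genes Angpt2 and Adm rose (0.73 ± 0.14 and 0.86 ± 0.19) and Apln, the apelin gene, fell from 17.2 ± 5.98 to 5.15 ± 2.88 CPM (slope -1.62 ± 0.50). The Apln call was kept in 24 of 30 fits without 1 library and lost with limma-voom (adjusted p = 0.210), without sex (0.0542), with reads outside genes (0.284), with the astrocyte sum (-0.86, 0.468) and without the 18-month libraries (0.131). Without the 2-month libraries its slope was -0.0484 (adjusted p = 0.973). Of the 3 tip cell calls male libraries alone kept only that of Angpt2, and female libraries alone 0. Of 12 neuropilin partners, semaphorins and plexins, only Plxna2 passed (0.80 ± 0.27), and it was lost with either covariate and kept in 10 of 30 fits without 1 library.

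Among 20 regulators of the receptor genes Erg, an ETS factor, rose from 24.7 ± 2.91 to 71.4 ± 11.7 CPM (slope 1.14 ± 0.27, adjusted p = 5.82e-03), Mef2c rose by 0.44 ± 0.12 and Sox18 fell by 0.51 ± 0.15. The Erg call was kept in 30 of 30 fits without 1 library and with the long-gene share (1.31), and lost with the reads outside genes (0.94, adjusted p = 0.123), without the 2-month libraries (0.55, 0.305) and without the 18-month ones (0.95, 0.0548). Those of Mef2c and Sox18 were lost with the long-gene share (adjusted p = 0.0591 and 0.115), with the reads outside genes (0.284 and 0.580) and without the 18-month libraries (0.160 and 0.144). Male libraries alone kept 0 of the 3 regulator calls, and female libraries alone also 0. Of 19 hypoxia factors and targets Bnip3 (0.65 ± 0.14), Ankrd37 (1.17 ± 0.25) and Epas1 (0.45 ± 0.13) rose, and Bnip3l (-0.45 ± 0.12) and Egln2 (-0.24 ± 0.08) fell. Epas1 encodes a hypoxia-inducible factor, whereas Bnip3 and Bnip3l act in mitophagy and Egln2 in oxygen sensing. The Egln2 call was kept in 9 of 30 fits without 1 library and lost with no filter (adjusted p = 0.0675). Of these 5 calls 3 were kept with the long-gene share and 1, that of Bnip3, with the reads outside genes. Without the 2-month libraries 0 of the 5 were kept, and without the 18-month ones those of Bnip3 and Ankrd37. With the astrocyte sum only Bnip3l was kept, in males alone 0 and in females alone only Epas1. Of 6 ligand genes and co-regulators outside the members that were tested, 0 passed by edgeR's quasi-likelihood test, DESeq2's Wald test or limma-voom.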

How the data were processed

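RNA of primary brain endothelial cells was sequenced in 30 libraries. Per the labels' protocols, cDNA was made with SMART-Seqv4 and libraries with Nextera XT, which keep neither strand nor molecular identifiers, so PCR copies are counted and the limit of 3 counts covers counting error only. They add that 24 libraries were read from both ends on one instrument and 6 from a single end on another, without naming the 6, so the instrument was not modelled. Each age also has 6 libraries. If the 6 single-end libraries were those of a single age, instrument and age could not be told apart. Per the submitters' processing notes, the tools were STAR 2.5.2b, HTSeq, MultiQC and FastQC 0.11.4, with the builds GRCm38 and mm10. The authors deposited whole-number read counts per gene, not normalized, and the column for either strand was used. Of 48795 gene identifiers 48349 matched a symbol. Coordinates and exon lengths come from the GENCODE M21 annotation of GRCm38. For the submitters' own counting, the annotation release is not stated.

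The members and lists were chosen with earlier results of these data known. Genes were kept by filterByExpr by age (minimum count 10, minimum total 15), which left 16844 genes. In R 4.3.3, edgeR 4.0.16 was fitted to all 30 libraries with TMM scaling and robust quasi-likelihood, with sex as a covariate, and with Benjamini-Hochberg adjustment at 0.05. Slopes are changes over 22 months. DESeq2 1.42.0, limma 3.58.1, other filters, scalings, covariates and libraries were alternatives. An SE was derived from the F statistic. The pipeline was tested on simulated data. The named genes were all 8 members, from each list of pathway genes those passing the slope (up to 6 with the lowest p), Vegfb and Vegfd, the top gene of a marker list, and the 3 genes most like each member, 1 of which is not reported here. The submitters describe the libraries of an age as biological replicates, and no 2 of a group agreed within counting noise (chi-square per degree of freedom 14.9 to 180.6 over 75 pairs of the same age).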

Additional observations from a re-analysis of the deposited data

Results flagged for a closer look

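Each member was looked at in each age for 1 library standing far from the other 5 (by Dixon's gap to the nearest library over the range of the 6, at its 95% critical value). Of 40 such groups 3 stood out, where chance gives about 1 in 20. Kdr in male library 3 of 2 months was 2205 CPM, the next library 1323 CPM and the other 5 had 1222 ± 127 CPM. Flt4 in the same library was 212 CPM, the next library 95.4 CPM and the other 5 had 87.9 ± 9.01 CPM. Vegfa in male library 1 of 2 months was 23.0 CPM, the next library 8.53 CPM and the other 5 had 6.95 ± 1.41 CPM.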

How the results depend on the processing

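Several alternatives were chosen after seeing the data: the covariates on the departure from a line and on marker sums, the long-gene share in the age contrasts, the scaling, filter and left-out libraries for the departure, and the left-out libraries for the interaction. The slope of Pgf kept its direction under every alternative run and its call under all but the male (1.19) and the female libraries alone (1.003), where 0 members passed.

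By test and filter, DESeq2's Wald test gave 2 members on the slope with Nrp2 at 0.51 (adjusted p = 0.0488), 2 members at 6 months and 902 genes at 12 months. Without a filter 967 genes passed at 6 months, 0 members at 12 months (Nrp1 lost at -0.41, adjusted p = 0.0515) and 1 at 18 months (Flt1 lost at 0.27, adjusted p = 0.0581). The interaction then passed for 7 genes. Adding reads outside genes left 402 genes that passed the slope (Kdr -0.15), 214 genes and 0 members at 18 months (Flt1 0.23, Nrp2 -0.15), 0 members at 24 months (Pgf 1.08), and 905 genes and 1 member departed from a line. Under this covariate signs turned for Vegfc at 6 months (-0.00184), Nrp2 at 12 (-0.11), Kdr at 18 (-0.22), and Flt4 (-0.0312) and Nrp2 (-0.0877) at 24 months. With the long-gene share Kdr's slope was -0.12, 788 genes and 0 members passed at 6 months (Kdr -0.29, Vegfc turning to -0.10), 825 genes at 12, 0 members at 18 (Flt1 0.20, Nrp2 0.41, Kdr turning to -0.20), 2171 genes at 24 months, and 1474 genes and 1 member departed from a line. The slope passed for 940 genes without the 2-month libraries (Vegfa 0.24), 726 without the 18-month ones, 193 in males (Kdr -0.13) and 623 in females (Vegfc -0.17). It passed for 2856 genes and 3 members with the pericyte and smooth muscle sum (Flt1 0.31, Flt4 0.62) and 1162 genes with the astrocyte sum (Vegfa 0.56). The cause of these changes was not tested.

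Leaving out each of the 30 libraries in turn, members passing the slope ranged from 1 to 3 (more without library 3 of 2 months or library 1 or 2 of 24 months), with Flt4 from 0.41 to 0.70, Nrp2 from 0.44 to 0.60 and Vegfa from -0.26 to 0.19. At 6 months 763 to 2181 genes and 0 to 1 member passed, with Kdr from -0.84 to -0.52. At 12 months 322 to 568 genes and 0 to 1 member passed, with Nrp1 from -0.49 to -0.34. At 18 months 0 to 3 members passed, with Flt1 from 0.23 to 0.32 and Nrp2 from 0.40 to 0.64, and at 24 months 0 to 1, with Pgf from 0.98 to 1.33. From 1878 to 3721 genes departed from a line and 0 to 1 gene passed the interaction. The 6-month gene count moved by over 1.5 times without any of the 3 female libraries of 2 or of 6 months, that of 12 months without library 6 of 2 months, and the departure count without library 5 of 18 months. Signs turned among changes that had not passed. At 6 months Vegfa ranged from -0.39 to 0.11, Vegfc from -0.20 to 0.20 and Pgf from -0.54 to 0.14. At 12 months Flt4 ranged from -0.28 to 0.15 and Nrp2 from -0.0500 to 0.13. At 18 months Nrp1 ranged from -0.0220 to 0.12, Vegfa from -0.58 to 0.00963 and Vegfc from -0.0650 to 0.10. At 24 months Kdr ranged from -0.30 to 0.0110, Flt1 from -0.0138 to 0.0770, Flt4 from -0.0052 to 0.41, Nrp1 from -0.0689 to 0.0772 and Vegfa from -0.28 to 0.25. The interaction ranged from -0.43 to 0.38 for Vegfa and from -0.63 to 0.0583 for Pgf. Depth limits Pgf and Vegfa most, at 39 to 431 and 78 to 685 reads a library.
No paired analysis was possible because the labels give no replicate numbers, and the numbers 1 to 6 used here follow the order of deposit and pair no libraries.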
